A study of Arabidopsis thaliana with 13 samples.

Results

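The 4 genes described here encode enzymes that break down branched-chain amino acids in plant mitochondria: AT1G21400, IVD (AT3G45300), MCCA (AT1G03090) and MCCB (AT4G34030). They were taken by locus from the annotation of a spotted cDNA array with 12800 features. Together they had 5 features, 2 for IVD and 1 for each other gene, out of 5197 features assigned to a single gene, which cover 3689 named genes. RNA of Arabidopsis thaliana from 2 times was set against each other on each of 13 arrays with 2 colours. RNA of 0 h was the earlier partner of 6 h (2 arrays), of 12 h (5 arrays), of 18 h (2 arrays) and of 24 h (1 array). RNA of 36 h was set against that of 24 h on 2 arrays, 1 of them labelled dark, and RNA of 60 h against that of 48 h on 1 array. Before the harvests at 60 and 48 h, plants raised with 12 h of light and 12 h of darkness a day had spent 36 and 24 h in continuous light. For the second array from 24 to 36 h and for the arrays from 0 h, the labels state no light condition. They name no tissue, strain, plant age or number of plants, so there was no labelled tissue to check. Of 3 root markers 1 was measured, PYK10, which had an adjusted p above 0.05 in all 7 comparisons and stood at -1.06 at 36 h over 24 h in the dark and -0.84 on the other array, and of 3 seed storage genes 0 were measured.

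Leucine, isoleucine and valine are degraded by a shared route at first. A transaminase turns each amino acid into a 2-oxoacid, which the branched-chain 2-oxoacid dehydrogenase complex converts to an acyl-CoA. AT1G21400 encodes a subunit of the E1 component of that complex, which carries out the first, decarboxylating step. On the leucine branch, IVD then encodes isovaleryl-CoA dehydrogenase, a flavoprotein whose electrons enter the respiratory chain through the electron transfer flavoprotein and its ubiquinone oxidoreductase. MCCA and MCCB encode the subunits of 3-methylcrotonyl-CoA carboxylase, which does the next reaction. MCCA carries the biotin, and MCCB is the carboxyltransferase subunit. In leaves the pathway is known as an alternative source of electrons for respiration when sugars run short, and several of its genes are textbook examples of genes induced in darkness.

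All values are ratios between 2 times on the log2 scale, minus the median of the array, so they say nothing of the level of one gene against another. The word called is used for an adjusted p under 0.05 in a limma model over all targets, in which each feature without a single gene is a target of its own. Ratios are given as later over earlier time, with the deposited ratio read as channel 2 over channel 1. That direction is likely but is not stated in the sources used here, and the other reading turns every sign below. It rests on how ratios of this kind are usually written and on a check that used none of the 4 genes: on the array labelled dark, the 3 measured Calvin cycle genes, which assimilate CO2 in the light, had fitted log2 changes at 36 h of -2.92 for SBPASE, which was called, and of -1.68 for PRK and -1.50 for RCA, which were not. The same genes stood at -2.57, -2.05 and -1.45 on the array from 24 to 36 h with no stated light condition. The share of features more than 2-fold from the array median was 2.07% on array 1 of 12 h and 7.29% to 21.6% on the other 12 arrays. Array 2 of 6 h has a title that lists its times in the opposite order to its channel labels, and the channel labels were used. Each array gave 12446 to 12795 feature values, and all 4 genes had a value on all 13 arrays.

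The 4 genes were far higher at 36 h than at 24 h on both arrays that covered this interval. On the other 11 arrays, 42 of their 44 values lay within 2-fold of no difference. Most features did so there, with 2.07% to 18.4% of features on each array more than 2-fold from the array median. AT1G21400 had a log2 ratio of 3.15 at 36 h over 24 h in the dark and of 2.83 on the array with no stated light condition. IVD had 3.06 in the dark and 3.02 on the other array. MCCA, the biotin subunit, had 3.53 in the dark and 3.16 on the other array. MCCB, the partner of MCCA, had 2.68 in the dark and 2.77 on the other array. Each gene thus gave nearly the same ratio on both arrays. On the array with no stated condition the lowest of the 4 stood at 2.77, a value that 50 of 11287 targets reached. On the dark array the lowest stood at 2.68, reached by 66 of 11250 targets. Both lowest values together were reached by 27 of the 11246 targets measured on both arrays, of which 6 are named: the 4 genes, and SIS and AT3G15356, which were picked out after their values were seen. In RNA of whole samples, a change in the share of a cell type and a change in RNA per cell cannot be told apart. The arrays had opposite channel orders, with the later time in channel 2 on the dark array and in channel 1 on the other, so the deposited ratios themselves had opposite signs.

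**Figure D1:**
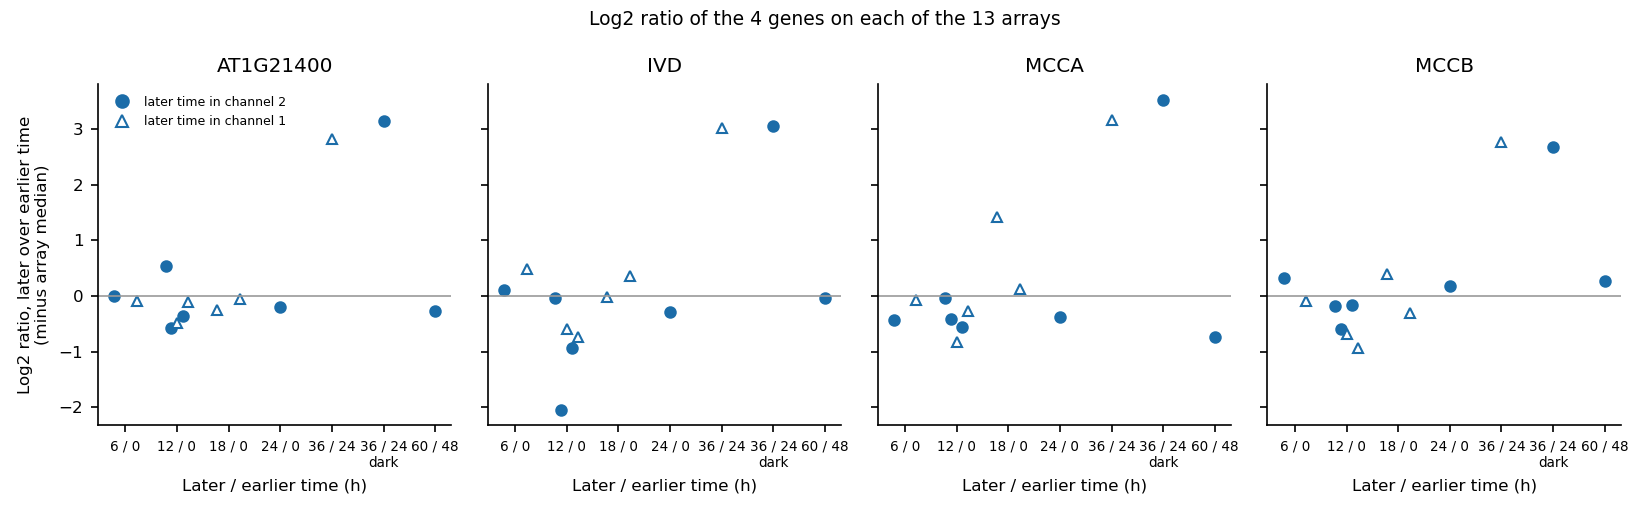
Log2 ratio (later over earlier time, minus the array median) of AT1G21400, IVD, MCCA and MCCB on each of the 13 arrays, by pair of times in hours. Filled circles are arrays with the later time in channel 2, open triangles those with it in channel 1. Every gene lies between 2.68 and 3.53 on the 2 arrays from 24 to 36 h and between -2.04 and 1.42 on the other 11.

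In the dark, all 4 genes were called higher at 36 h than at 24 h, where 0.925% of the 11248 targets tested were called higher. The 4 genes were brought together with changes in these data known, so the count is a description. MCCA rose by log2 3.50 ± 0.49 (SE, 1 array, limma adjusted p = 0.0157), which is 11.3-fold. IVD, the dehydrogenase before it in the pathway, rose 9.42-fold (3.24 ± 0.59, limma adjusted p = 0.0313). AT1G21400 rose 8.41-fold (3.07 ± 0.43, limma adjusted p = 0.0157) and MCCB 5.46-fold (2.45 ± 0.37, limma adjusted p = 0.0167). MCCA was 2.00, below the other 3, when a feature assigned to it and to a second gene was averaged in. Without that feature the order of size is MCCA, IVD, AT1G21400 and MCCB, and each estimate lies within the 95% confidence interval of its neighbour in that order, with the intervals running from 1.61 to 3.28 for MCCB and from 2.40 to 4.60 for MCCA. The comparison has 1 array, whose spread is taken from the other arrays. With arrays scaled to 1 spread, none of the 4 and 0 of 11248 targets were called. The same counts came from averaging the 3 arrays of 12 h read with the oldest software. With array 2 of 6 h turned as its title gives it, none of the 4 was among the 10 of 11248 targets called. All 76 values over the settings that used the same features stayed above 0, from 2.04 to 3.75.

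From 24 to 36 h with no stated light condition, 3 of the 4 genes were called higher, against 0.824% of 11285 targets. MCCA rose 9.10-fold (log2 3.19 ± 0.49, SE, limma adjusted p = 0.0230), MCCB 8.06-fold (3.01 ± 0.37, limma adjusted p = 0.0179) and AT1G21400 7.47-fold (2.90 ± 0.43, limma adjusted p = 0.0213). IVD stood at 2.85 ± 0.59 and just missed (limma adjusted p = 0.0503). Leaving out array 1 or 2 of 6 h, or array 3 or 5 of 12 h, left 1 gene of the 4 called. In these settings 15 to 35 of all targets were called, against 174 with all arrays. All 4 were called without array 1 or 2 of 12 h, where 215 and 131 targets were. A count of 1 also came from turning array 2 of 6 h (13 targets called) or fitting dye bias apart for the oldest software (21). Scaling arrays to 1 spread called 0 of the 4 and 0 of 11285 targets. So did averaging the 3 arrays of 12 h read with the oldest software. A test of the difference between both comparisons of 36 h with 24 h called none of the 4 genes and 0 of 11053 targets in limma, with 0 of the 4 and 370 targets at an unadjusted p under 0.05. The dark change minus the other was 0.17 for AT1G21400 (95% interval -1.28 to 1.62), 0.39 for IVD (-1.57 to 2.35), 0.32 for MCCA (-1.32 to 1.96) and -0.56 for MCCB (-1.82 to 0.69). These intervals allow differences of more than 2-fold either way for AT1G21400, IVD and MCCA. They do not show that the response was alike.

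**Figure D2:**
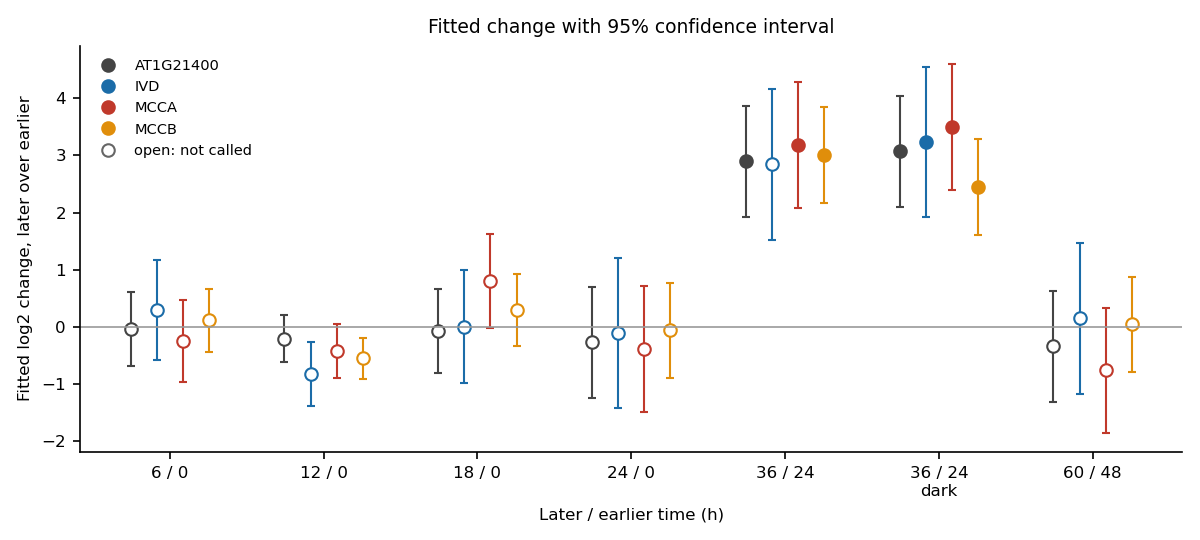
Fitted log2 change (later over earlier time) of the 4 genes for each pair of times in hours, with 95% confidence intervals from the limma model as bars. Filled points were called and open points were not. All 4 genes stand between 2.45 and 3.50 at both comparisons of 36 h with 24 h and between -0.84 and 0.79 elsewhere.

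In continuous light, over the same part of the day on a later cycle, the 4 genes were not called and stood within 2-fold of no difference. At 60 h over 48 h the array gave log2 ratios of -0.27 for AT1G21400, -0.03 for IVD, -0.75 for MCCA and 0.28 for MCCB. MCCA was low for this array, with 94.2% of 11105 targets at or above its value. The fitted changes ran from -0.77 for MCCA to 0.14 for IVD. limma called none of them, 0 had an unadjusted p under 0.05, and 0.585% of 11104 targets were called. The upper 95% limit was highest for IVD, at 1.47, and was 0.33 for MCCA, 0.63 for AT1G21400 and 0.88 for MCCB. The change from 48 to 60 h minus that from 24 to 36 h in the dark was -4.27 ± 0.65 for MCCA (SE, limma adjusted p = 0.0222) and -3.42 ± 0.57 for AT1G21400 (limma adjusted p = 0.0301), both called. For MCCB the difference was -2.41 (limma adjusted p = 0.0531) and for IVD -3.09 (limma adjusted p = 0.0907), neither called, and 0.425% of 11053 targets were called lower in this contrast. The contrast sets 1 array against 1 other, and 123 of all targets were called in it, higher or lower. Its count among the 4 genes moved to 0 without array 5 of 12 h (30 targets called). It moved to 1 without array 3 of 12 h (52) or without array 1 or 2 of 6 h (56 and 59). It moved to 3 without array 1 or 2 of 18 h (203 and 229) or array 1 or 2 of 12 h (209 and 136). Light, the day of the cycle and the array differ together between these comparisons and cannot be told apart.

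From 0 to 12 h, again the same part of the day, the 4 genes were lower at the later time on most arrays, by small amounts. On array 1 of 12 h, whose ratios had the narrowest spread of all arrays, AT1G21400 stood at 0.54, IVD at -0.03, MCCA at -0.04 and MCCB at -0.18. On arrays 2 to 5 all 16 values were below 0, with the same 4 genes read on each array. The share of all targets below 0 on all of these arrays was not counted. AT1G21400 had log2 ratios of -0.58, -0.48, -0.35 and -0.11 on arrays 2 to 5. IVD had -2.04, -0.59, -0.94 and -0.75. The value of IVD on array 2 was the lowest that any of the 4 genes showed on any array. MCCA had -0.42, -0.82, -0.56 and -0.27, and MCCB had -0.59, -0.69, -0.17 and -0.94. In the fit none was called (limma), although IVD and MCCB had an unadjusted p under 0.05, and 4.11% of 11290 targets were called, 2.27% as lower. IVD stood at -0.84 ± 0.25 (SE, 5 arrays, limma adjusted p = 0.0956), MCCB at -0.56 ± 0.16 (limma adjusted p = 0.0825), MCCA at -0.43 ± 0.21 (limma adjusted p = 0.278) and AT1G21400 at -0.21 ± 0.18 (limma adjusted p = 0.550). Without array 1, IVD was called lower by 1.08 (limma adjusted p = 0.0143), and without array 2 its value was -0.58. Leaving out array 1 also raised the calls over all targets, from 464 of 11290 to 1063 of 11291.

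The changes from 24 to 36 h differed from that from 0 to 12 h for all 4 genes in the fit, but not under every setting. The dark change minus the change at 12 h was 4.07 ± 0.62 for IVD (SE, limma adjusted p = 0.0280), 3.93 ± 0.52 for MCCA (limma adjusted p = 0.0164), 3.28 ± 0.46 for AT1G21400 (limma adjusted p = 0.0201) and 3.01 ± 0.40 for MCCB (limma adjusted p = 0.0164), with 0.760% of 11053 targets called higher. With no stated light condition the difference ran from 3.11 for AT1G21400 to 3.68 for IVD, and all 4 were called (limma adjusted p from 0.0156 to 0.0328) where 1.53% of targets were called, 111 of 11053 as higher. Both contrasts called 0 of the 4 and 0 of 11053 targets with arrays scaled to 1 spread. The same counts came from averaging the 3 arrays of 12 h read with the oldest software. The second contrast also called 0 of the 4 and 0 of 11047 targets with dye bias fitted apart for the oldest software. Without array 3 or array 5 of 12 h, it called 0 of the 4 and 0 of 11053 targets. With array 2 of 6 h turned it called 1 of the 4, where 8 targets were called. The first called 2 of the 4 without array 1 of 6 h, where 24 targets were called. The change from 48 to 60 h minus that from 0 to 12 h was called for none of the 4 in limma (0 at an unadjusted p under 0.05), where 0.398% of targets were called, with 95% limits between -1.50 and 2.37.

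At 6, 18 and 24 h over 0 h none of the 4 genes was called in limma, and 0 of the 4 had an unadjusted p under 0.05 at any of these times, where 0.00886%, 0.00% and 0.0177% of targets were called. At 6 h, IVD had 0.10 and 0.48 on arrays 1 and 2, MCCA -0.43 and -0.08, MCCB 0.32 and -0.09, and AT1G21400 0.004 and -0.09. At 18 h, MCCA had 1.42 on array 1 and 0.13 on array 2. The value of 1.42 was the highest of any of the 4 genes outside the arrays of 36 h, and on that array its partner MCCB stood at 0.40, IVD at -0.03 and AT1G21400 at -0.25. The fitted change of MCCA at 18 h was 0.79 ± 0.37 (SE, limma adjusted p = 0.834) and was 0.15 without array 1 and 1.44 without array 2, not called in either case. On array 2 of 18 h, IVD stood at 0.37, MCCB at -0.30 and AT1G21400 at -0.05. At 24 h over 0 h, 1 day apart, the array gave -0.20 for AT1G21400, -0.28 for IVD, -0.37 for MCCA and 0.17 for MCCB. All comparisons with 0 h share that time as reference.

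The spread among the 4 genes at 36 h lay within that on the other arrays, although their values were far from 0. The range between the highest and lowest of them was 0.39 on the array from 24 to 36 h with no stated condition and 0.84 on the dark array. It ran from 0.34 on array 3 of 12 h to 1.67 on array 1 of 18 h over the other arrays. The SD over the 4 genes was 0.18 and 0.35 on the array with no stated condition and the dark array, against SDs over all targets of 0.85 and 0.81. It was also below that of all targets on the other arrays, such as 0.14 against 0.69 on array 3 of 12 h. The exception was array 2 of 12 h, with 0.76 against 0.73. The 4 genes were brought together with changes in these data known, so these SDs are descriptions. Over the 13 arrays, the Pearson r between pairs of the 4 genes ran from 0.88 for IVD with MCCA to 0.93 for AT1G21400 with MCCB. Over the 11 arrays left without the 2 of 36 h, it ran from 0.19 for AT1G21400 with MCCB to 0.59 for AT1G21400 with IVD, and was 0.35 for MCCA with MCCB. The high correlations therefore rest on these 2 arrays. The points share arrays, and the arrays with 0 h share a reference time.

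The 2 features of IVD stood at 2.81 and 3.32 on the dark array and at 2.90 and 3.14 on the other array of 36 h. On array 2 of 12 h they stood at -1.82 and -2.26, so the low value of IVD there was shared by both. Their absolute difference ran from 0.09 to 0.83 over the 13 arrays and was below the median of all genes with 2 features on 4 of 13 arrays. A further feature is assigned by the platform annotation to MCCA together with a second gene, and was left out for that reason. It stood at 0.61 on the dark array and 0.59 on the other array of 36 h, far below the 3.53 and 3.16 of the feature assigned to MCCA alone. With both features averaged, MCCA rose by 2.00 ± 0.37 in the dark (SE, limma adjusted p = 0.0331) and by 1.94 ± 0.37 on the other array (limma adjusted p = 0.0389), a setting chosen after its values were seen. For MCCA, MCCB and AT1G21400 the result thus rests on 1 feature each. Transcripts of close relatives can bind the same cDNA spot, which was not tested.

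Of 19 other genes of branched-chain amino acid breakdown, 5 were measured, and 1 of them, ALDH6B2, was called from 24 to 36 h. ALDH6B2 encodes methylmalonate semialdehyde dehydrogenase, at the end of the valine branch. It rose by 2.39 ± 0.44 in the dark (SE, limma adjusted p = 0.0313), with its 4 features at 1.74 to 3.21, and by 3.06 ± 0.44 on the other array of 36 h (limma adjusted p = 0.0189), with its features at 2.11 to 3.56. Its calls at 36 h were lost with arrays scaled to 1 spread, as were those of all targets. At 60 h over 48 h it was at -0.71 ± 0.44 and was not called. ETFQO, the oxidoreductase that passes electrons from IVD to ubiquinone, stood at 1.78 ± 0.47 in the dark (limma adjusted p = 0.0882) and at 1.74 ± 0.47 on the other array (limma adjusted p = 0.106) and was not called. ETFALPHA, a subunit of the electron transfer flavoprotein between them, was at 0.80 and 0.63. D2HGDH, a dehydrogenase that feeds the same flavoprotein, was at 0.21 and 0.24. AT2G26800, a hydroxymethylglutaryl-CoA lyase that completes leucine breakdown, was not called in either comparison and stood at -0.46 ± 0.53 in the dark and -0.19 ± 0.53 on the other array. It was the 1 gene of the list called at 12 h, where it fell by 1.13 ± 0.22 (SE, 5 arrays, limma adjusted p = 0.0320). Its log2 ratio was 0.09 on array 1 of 12 h and between -1.68 and -0.47 on arrays 2 to 5. This call was lost, with 0 of all targets called, when any 1 of arrays 2 to 5 was left out. Reversing array 2 of 6 h, or merging the ScanAlyze 2.33 arrays of 12 h into their mean, removed it too. Without the dye term, 1 of 11290 targets was called at 12 h. The 5 genes had a median change of 0.80 in the dark and 0.63 on the other array, against 3.15 and 2.96 for the 4 genes and -0.02 and -0.03 for all targets.

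**Figure D3:**
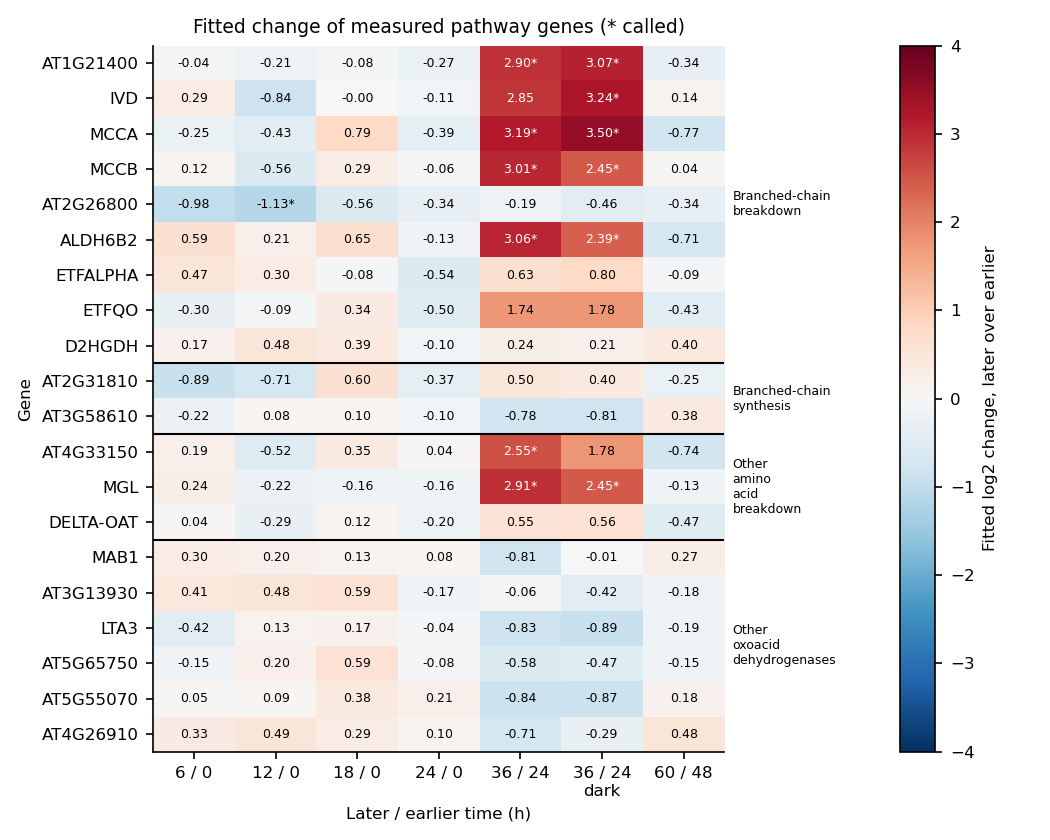
Fitted log2 change (colour and number, later over earlier time) of the 4 genes and of the measured genes of related lists, for each pair of times in hours. A star marks a called change. AT1G21400, IVD, MCCA, MCCB, ALDH6B2, MGL, AT4G33150 and ETFQO stand at 1.74 or above at both comparisons of 36 h with 24 h. The oxoacid dehydrogenase genes lie between -0.89 and -0.01 there.

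Of 17 genes that break down other amino acids, 3 were measured. MGL, the methionine gamma-lyase of methionine breakdown, rose by 2.45 ± 0.41 in the dark (SE, limma adjusted p = 0.0222) and by 2.91 ± 0.41 on the other array of 36 h (limma adjusted p = 0.0189), although its 3 features ranged from 1.60 to 3.50 and from 1.17 to 4.07. AT4G33150, which encodes the bifunctional first enzyme of lysine breakdown, was at 1.78 ± 0.43 in the dark (limma adjusted p = 0.0680) and rose by 2.55 ± 0.43 on the other array (limma adjusted p = 0.0321). The calls of MGL and AT4G33150 were likewise lost with arrays scaled to 1 spread. DELTA-OAT, an ornithine aminotransferase, stood at 0.56 and 0.55 and was not called. Of 17 genes of branched-chain amino acid synthesis 2 were measured, and neither was called in any of the 7 comparisons. AT3G58610, the ketol-acid reductoisomerase, was at -0.81 in the dark and -0.78 on the other array, and AT2G31810, a regulatory subunit of acetolactate synthase, was at 0.40 and 0.50. The pyruvate and 2-oxoglutarate dehydrogenase complexes are related to the complex of AT1G21400. Their E1 components are the closest counterparts of its protein, and their E2 components carry out another step. Of 15 genes of such complexes and of other biotin enzymes, 6 were measured: MAB1, AT3G13930, LTA3, AT5G65750, AT5G55070 and AT4G26910, all of the dehydrogenase complexes. None was called in any of the 7 comparisons. Their changes from 24 to 36 h lay between -0.89 and -0.01 in the dark, with a median of -0.44, and between -0.84 and -0.06 on the other array, with a median of -0.76. Of 9 other dark-induced genes 0 had a named feature.

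**Figure D4:**
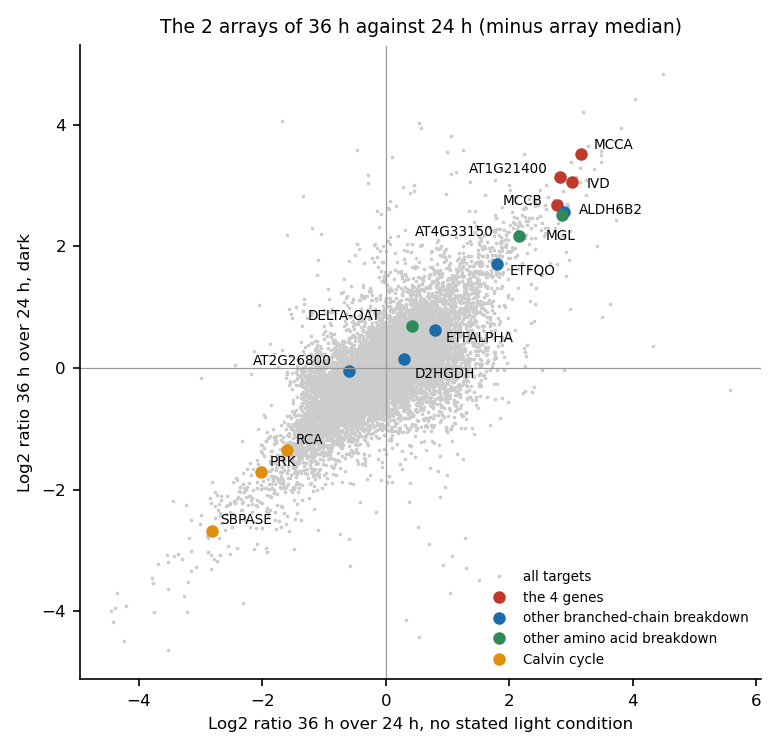
Log2 ratio at 36 h over 24 h (minus the array median) on the dark array, vertical, and on the array with no stated light condition, horizontal. Grey points are all targets, coloured points named genes by list. The 4 genes lie at 2.68 to 3.53 on the dark array and 2.77 to 3.16 on the other, and the Calvin cycle genes RCA, PRK and SBPASE lie below 0 on both.

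The genes most like the 4 over the 13 arrays were sought by the Pearson r of each of 3629 named genes with the mean log2 ratio of the 4. The highest were AT3G51730 (r = 0.97), AT5G24490 (r = 0.97), SIS (r = 0.96), AT1G56220 (r = 0.95) and MGL (r = 0.94). Their log2 ratios were 1.83 to 3.29 at 36 h over 24 h in the dark and 1.49 to 3.14 on the other array. Without the 2 arrays of 36 h, r over the 11 others was 0.66 for AT3G51730, 0.79 for AT5G24490, 0.38 for SIS, 0.68 for AT1G56220 and 0.24 for MGL, so that the likeness of SIS and MGL rests on the 36 h arrays. The lowest were GH9B7 (r = -0.96), AT3G19330 (r = -0.95) and AT2G20760 (r = -0.94). AT3G19330 stood at -3.02 in the dark and -2.88 on the other array, while GH9B7 stood at only -0.66 and -0.65 and AT2G20760 at -0.70 and -0.91. These correlations are descriptions over arrays that share RNA of the same times.

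**Figure D5:**
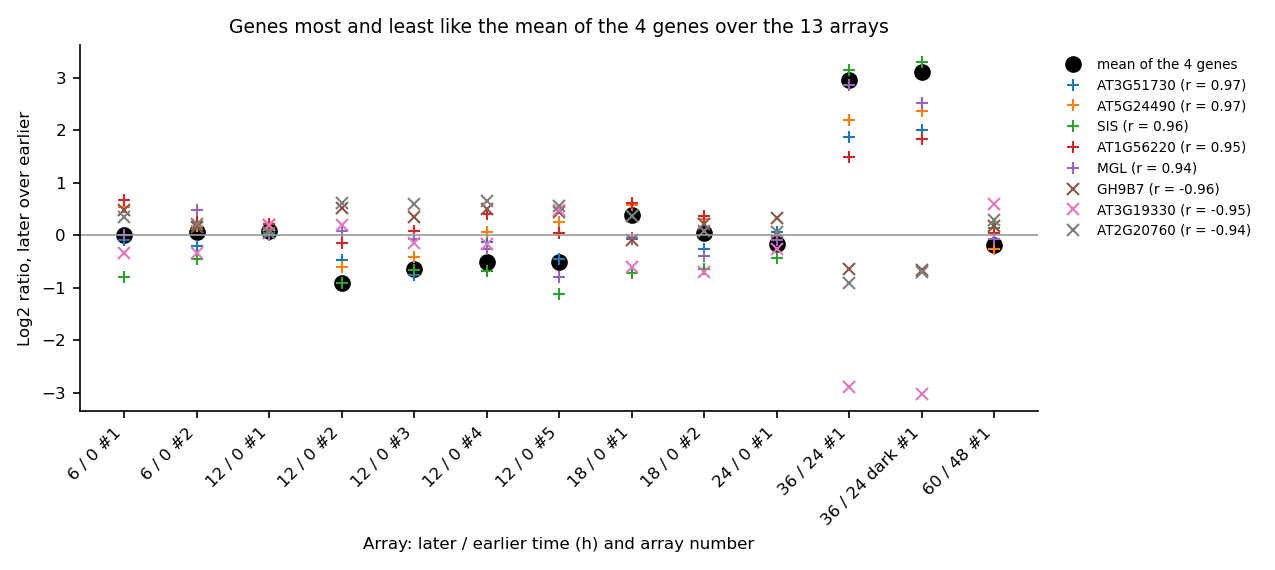
Log2 ratio (later over earlier time, minus the array median) of the mean of the 4 genes, black circles, and of the named genes with the highest (plus signs) and lowest (crosses) Pearson r with it, on each of the 13 arrays. The mean of the 4 genes stands at 3.10 on the dark array, at 2.95 on the other array of 36 h, and between -0.91 and 0.39 on the rest.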

How the data were processed

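Each array was deposited as a log2 ratio for every feature. Scans were read in ScanAlyze 2.33, 2.42 or 2.44 by the authors, per the labels; background correction and normalisation are not given in the sources used here. Base 2 follows from an excess of values at -1, which occurs 159 times where its neighbours average 20.4. Pairs of times came from the channel labels, also for array 2 of 6 h, whose title lists them in the other order. Symbols were updated through the gene table of TAIR10.1, which matched 5190 features.

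Features of 1 gene were averaged, and targets with values on at least 10 arrays were fitted with limma 3.58.1 in R 4.3.3, with a coefficient for each pair of times and a dye term, on 5 residual degrees of freedom shared by all comparisons. Benjamini-Hochberg adjustment ran over all targets. The script was tested on simulated data. Titles mark array 1 of 6 h, array 2 of 12 h and array 1 of 18 h as biological. They mark array 1 of 12 h as single. The title of array 5 of 12 h repeats that of array 3 with a number 2 added. Whether these arrays share RNA is not stated. Titles say nothing on the replication of the remaining arrays. The p-values therefore measure a spread that may be partly technical, and the number of arrays limits precision.

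The 4 genes and the lists were chosen with earlier results of these data known. Named are these genes, each measured list gene, and the 5 most and the 3 least alike, with AT3G15356 named after its values were seen. Coordinates are left out because no build is stated, and the planned motif search was not run.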

Additional observations from a re-analysis of the deposited data

Results flagged for a closer look

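The difference between comparisons of the same part of the day was called in limma for 10 contrasts of single genes. The change from 24 to 36 h in the dark exceeded that from 0 to 12 h by 4.07 for IVD, 3.93 for MCCA, 3.28 for AT1G21400 and 3.01 for MCCB on the log2 scale. In this contrast 0.760% of 11053 targets were called higher. With no stated light condition the change from 24 to 36 h exceeded the 12 h change by 3.68 for IVD, 3.61 for MCCA, 3.57 for MCCB and 3.11 for AT1G21400. Here 1.53% of 11053 targets were called, higher or lower. With arrays scaled to 1 spread, both contrasts with 12 h called 0 of 11053 targets. The change from 48 to 60 h minus that from 24 to 36 h in the dark was -4.27 for MCCA and -3.42 for AT1G21400, where 0.425% of 11053 targets were called lower. In 24 genes examined on the 5 arrays of 12 h, 0 had an array that stood apart by Dixon's rule, which chance alone gives in about 1 of 20 groups.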

How the results depend on the processing

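No paired analysis was possible because the labels give the arrays no replicate numbers that pair them. At both comparisons of 36 h with 24 h the 4 genes stayed above 0 under every other setting tried, from 2.04 to 3.75 in the dark and from 1.83 to 3.27 on the other array when the feature shared by MCCA and a second gene was left out. With that feature averaged in, MCCA was 2.00 in the dark and 1.94 on the other array. The signs held, while the calls depended on the setting, and the cause was not tested.

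Counts below are of the 4 genes called. The order is 36 h in the dark, the other array of 36 h, the contrasts of either with 12 h, and 60 h with the dark. In the fit above the counts were 4, 3, 4, 4 and 2, and 243, 174, 198, 169 and 123 over all targets. Averaging the 3 arrays of 12 h read with the oldest software gave 0 throughout, and 0, 0, 0, 0 and 15 over all targets. With arrays scaled to 1 spread the counts were 0, 0, 0, 0 and 1, and 0, 0, 0, 0 and 219 over all targets. With array 2 of 6 h turned they were 0 in the dark, 1 on the other array, 1 in its contrast with 12 h and 0 in that of 60 h with the dark. Over all targets these were 10, 13, 8 and 9. With a separate dye term they were 1 on the other array and 0 in its contrast with 12 h, and 21 and 0 over all targets. With the feature shared by MCCA and a second gene averaged in, an alternative chosen after seeing the data, 1 was called in the contrast of 60 h with the dark. Leaving out 1 array in turn gave 3 to 4 in the dark, 1 to 4 on the other array, 2 to 4 and 0 to 4 in their contrasts with 12 h, 0 to 3 for 60 h against the dark, and 0 to 1 at 12 h. Over all targets, in the same order, this gave 77 to 361, 15 to 215, 24 to 437, 0 to 272, 30 to 229 and 0 to 1063.

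Signs turned only for values not called. Without the dye term IVD was 0.17 at 18 h and -0.0295 at 60 h, and MCCB 0.17 at 24 h. With a separate dye term IVD was 0.0084 at 18 h, and AT1G21400 -0.15 for the dark minus the other array. With arrays scaled, MCCB was 0.0591 at 24 h and 0.0071 for that difference. With array 2 of 6 h turned, IVD was -0.0229 at 6 h and 0.0026 at 18 h, and MCCB -0.0479 at 6 h. With the shared feature averaged in, MCCA was 0.0103 for 60 h minus 12 h. Leaving out 1 array gave ranges of -0.20 to 0.19 for IVD, -0.19 to 0.0252 for AT1G21400 and -0.0617 to 0.64 for MCCB at 18 h, -0.53 to 0.0272 for MCCA at 6 h, -0.28 to 0.0535 for IVD at 24 h, -0.0274 to 0.31 for IVD and -0.0041 to 0.0831 for MCCB at 60 h, and -0.32 to 0.15 for AT1G21400 for 60 h minus 12 h.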
